A study of Homo sapiens with 4 samples.

Results

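The genes described here encode shelterin, the protein complex that coats the ends of human chromosomes, together with TERT, the protein subunit of telomerase. They were taken by name from the deposited table: TERF1, TERF2, TERF2IP, POT1, TINF2 and ACD for the 6 shelterin proteins, plus TERT, 7 genes of 16174 listed. All 7 had a row. Of these, 5 had a value above 0 in all 4 libraries, TERF2IP was at 0 in 1 library, and TERT was at 0 in all 4. An average of 1 TPM or more (TPM being the authors' read share scaled by gene length) was reached by TERF1, TERF2, TINF2 and ACD, which entered the tests, and the other 3 genes did not reach it.

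TERF1 and TERF2 are related proteins that bind double-stranded telomeric repeats through a Myb-type domain, and TERF2IP (RAP1) is held there by TERF2. TINF2 links TERF1 and TERF2 to ACD (TPP1), and ACD carries POT1, which binds the single-stranded overhang. ACD also recruits telomerase, which pluripotent cells use to keep their telomeres long, and TERF1 is known as an abundant telomere protein in pluripotent cells.

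The cells were H9, a widely used human embryonic stem cell line in the primed state, whose polyadenylated RNA was read as PCR-amplified cDNA on a nanopore sequencer. All cells carried a doxycycline-inducible dCas9-KRAB repressor (CRISPR interference) delivered by piggyBac transposition with puromycin selection, and all 4 libraries were made from cells given doxycycline. The knockdown arm received 4 pooled guides against the long non-coding RNA SNHG26 and the control arm received non-targeting guides, each harvested after 2 and after 3 days of doxycycline. There is 1 library for each arm and day, so every mean ± SD by arm has n = 2 and includes any effect of the day. The labels do not say that the libraries came from separate cultures, so p-values measure only the spread between these libraries. No library without doxycycline was analysed here, and a change that doxycycline or dCas9-KRAB causes in both arms would not appear as a difference between them.

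The targeted gene SNHG26 was listed at 0 TPM on day 2 and 0.933 TPM on day 3 in the knockdown arm, and at 2.98 and 4.03 TPM with control guides. On the listed genes, the libraries held at most 947338 to 1220265 reads each. Reads outside the listed genes are not included. Of 12 pluripotency markers, 11 had a row and their TPM summed to between 1749 and 2144 per library. Of 20 markers of other cell types, 9 had a row and 2 of those were at 0 in all libraries. The summed TPM of the 9 was 206.7 (knockdown) and 214.0 (control) on day 2 and 91.2 and 83.7 on day 3. Most of it came from TAGLN, an actin-binding gene of smooth muscle and mesenchyme, at 166.3 and 173.2 TPM on day 2 and 61.8 and 51.05 TPM on day 3. The other mesenchymal markers on the list did not share this drop. COL1A2 stood at 3.79 and 7.47 TPM on day 2 and 5.01 and 7.72 TPM on day 3. ACTA2 had 0.130 and 0.286 TPM, then 0.348 and 0.358 TPM. COL1A1 fell from 4.16 to 2.98 TPM with SNHG26 guides and rose from 3.21 to 4.21 TPM with control guides. In RNA of a whole culture, fewer cells of a type and less RNA per cell cannot be told apart.

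The reads of some shelterin genes could be matched to an annotated span, because the deposited TPM equals whole reads divided by a genomic span, introns included. The 4 libraries held 23 values above 0 for these genes. Of the 23, 7 were whole reads over the span of a single RefSeq gene or GENCODE 29 transcript within 0.0001 read, and another 2 equalled a single sum over 2 spans. TERF2IP came out as 2 reads in the day 3 knockdown library and 1 read in each control library, over 9660 bases of chromosome 16 (75647773 to 75657432, plus strand), which is the RefSeq gene. TINF2 came out as 4 reads in the day 2 control library over 3021 bases of chromosome 14 (24239643 to 24242663, minus strand), which is the span of a GENCODE transcript of TINF2. The start of each span is the annotated one, and whether the reads reached it was not tested. The RefSeq sequence (GRCh38.p14) that leads up to and ends at that start base is shown for both genes. It runs 5′ to 3′ on the gene's strand, with motif matches on either strand in capitals. The motifs searched were the GC box with the letters GGGCGG, then the CCAAT box with its own name as letters, and finally the core bound by ETS factors with the letters CCGGAA. The spans of the annotation the authors used may differ from these, and it is not given in the sources used here.
TERF2IP, chr16:75647523-75647773, plus strand: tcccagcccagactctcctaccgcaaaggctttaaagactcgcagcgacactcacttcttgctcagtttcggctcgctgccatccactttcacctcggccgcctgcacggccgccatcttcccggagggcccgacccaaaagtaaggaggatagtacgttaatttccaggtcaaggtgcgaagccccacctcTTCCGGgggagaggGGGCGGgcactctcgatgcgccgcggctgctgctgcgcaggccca
TINF2, chr14:24242663-24242924, minus strand: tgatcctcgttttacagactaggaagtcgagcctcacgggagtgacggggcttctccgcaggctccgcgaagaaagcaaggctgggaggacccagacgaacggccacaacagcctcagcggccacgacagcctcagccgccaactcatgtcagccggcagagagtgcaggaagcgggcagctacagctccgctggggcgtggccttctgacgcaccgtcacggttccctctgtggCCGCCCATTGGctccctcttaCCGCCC
The TERF2IP stretch held 1 GC box and 1 ETS core. The TINF2 stretch held 2 GC boxes and 1 CCAAT box, all on the other strand, with the CCAAT box directly beside a GC box and no base shared between them. In the whole RefSeq windows of 300 bases, a GC box was found for each of the 4 shelterin genes searched (POT1, TINF2, ACD and TERF2IP). TERF1 was left out of this search. Of 35116 such windows, 45.0% held a GC box, 34.6% a CCAAT box and 17.2% an ETS core. A match is a description of these letters only. The TERF2IP stretch lies inside the listed span of KARS1, a lysyl-tRNA synthetase gene on the opposite strand that overlaps TERF2IP by 871 bases and stood at 49.3 to 55.7 TPM in the 4 libraries.

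Levels per base of span placed ACD and TINF2 above TERF1, and TERF1 above TERF2, TERF2IP and POT1. ACD, which bridges TINF2 and POT1, is listed on the minus strand of chromosome 16 (GRCh38, 67657512 to 67660810, 3299 bases) with a mean of 24.7 ± 7.11 TPM (SD over the 4 libraries, n = 4). TINF2 (chromosome 14, 24238286 to 24242663, minus strand, 4378 bases) had 24.5 ± 13.9 TPM (SD, n = 4). The ranges of ACD and TINF2 overlapped, so these 2 levels did not differ beyond their spread. TERF1 (chromosome 8, 73008856 to 73048123, plus strand, 39268 bases) had 4.20 ± 1.51 TPM (SD, n = 4), and its highest value, 5.75 TPM, lay below the lowest TINF2 value, 10.6 TPM.

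TERF2 (chromosome 16, 69355567 to 69408571, minus strand, 53005 bases) had 1.46 ± 0.678 TPM (SD, n = 4), and its highest value, 2.10 TPM, lay below the lowest TERF1 value, 2.66 TPM. TERF2IP (chromosome 16, 75647773 to 75761872 as listed, plus strand) had 0.720 ± 0.557 TPM and POT1 (chromosome 7, 124822386 to 124929983, minus strand, 107598 bases) had 0.466 ± 0.520 TPM (SD, n = 4 each). The ranges of TERF2, TERF2IP and POT1 overlapped from one to the next. By mean TPM, 1813 listed genes stood above ACD, 4748 above TERF1 and 9985 above POT1.

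**Figure D1:**
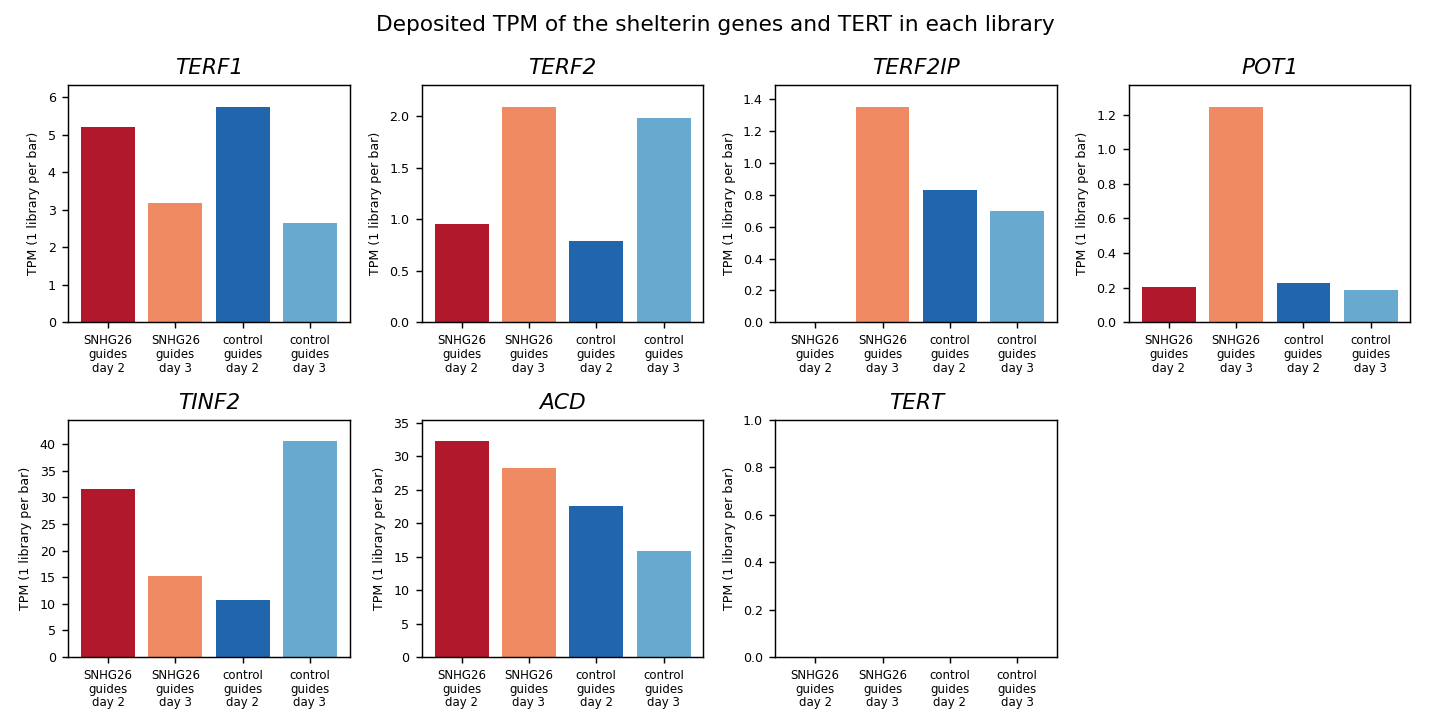
Deposited TPM (vertical axis, linear, a separate scale for each gene) of the 6 shelterin genes and TERT in the 4 libraries, 1 bar per library, coloured by guide arm and day. TERF1 is higher in both day 2 libraries, ACD is higher in both libraries with SNHG26 guides, TINF2 is highest at 40.5 TPM in the day 3 control library, and TERT is at 0 in all.

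The order in TPM is an order per base of genomic span, and the shelterin genes differ widely in span. ACD and TINF2 are compact genes of 2749 and 3035 bases in RefSeq, while the others reach 107440 bases for POT1. In TPM, ACD and TINF2 together made up 81.4% to 91.1% of the summed level of the 7 genes in each library. The estimated number of reads behind each value gave another order. With each read placed on the RefSeq gene span of 39260 bases, TERF1 had 28.0 and 19.1 reads with the SNHG26 guides, for day 2 and day 3, and 28.1 and 15.5 reads with the control guides. TINF2 had 13.1 and 7.10 reads on its RefSeq span of 3035 bases in the knockdown libraries, 4 reads in the day 2 control library and 18.3 in the day 3 control library. On these spans TERF1 had more reads than TINF2 in 3 of the 4 libraries, although its TPM was lower in all 4. That order rests on the span assumed: no TERF1 value came out as whole reads, and on its shortest annotated span of 3598 bases the 4 values would need as few as 3, 2, 3 and 2 reads. ACD had 12.2 and 11.9 estimated reads in the knockdown libraries, 7.71 in the day 2 control library and 7 in the day 3 control library.

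The other shelterin genes had fewer than 10 reads in each library, apart from POT1 on day 3 with SNHG26 guides, whose number is not known. TERF2 rested on 4 and 5 reads in the knockdown libraries and on 3 and 9 reads in the control libraries. TERF2IP rested on 0 and 2 reads in the knockdown libraries and 1 read in each control library. POT1 corresponded to at most 3.03 reads in the day 2 knockdown library and at most 3.02 reads in each control library, on its full listed span. Its day 3 knockdown value could rest on at least 1 and at most 20.5 reads. None of its 18 annotated spans alone, and none of 688 sums over 2 spans, gave whole reads for that value. No molecular identifiers were described, so amplified reads are not independent molecules and every interval on them covers counting error only.

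**Figure D2:**
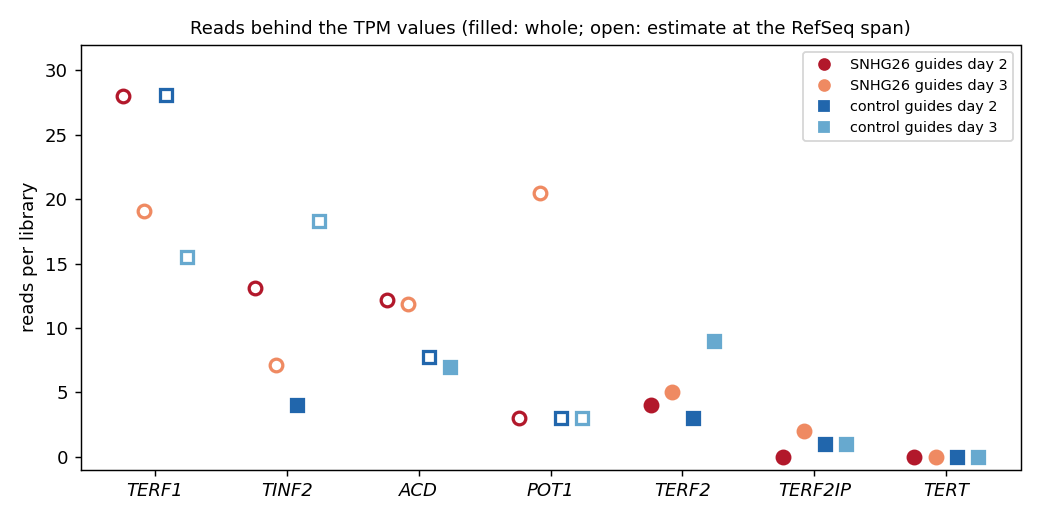
Number of reads (vertical axis) behind each TPM value for the 7 genes, 1 point per library, coloured by guide arm and day. Filled points are whole reads recovered from the values or a listed 0, and open points are estimates with every read on the RefSeq gene span. TERF1 has 28.0 and 28.1 estimated reads in the day 2 libraries, and TERF2 has 3 to 9.

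TERT (chromosome 5, 1253147 to 1295068, minus strand, 41922 bases) was listed at 0 TPM in all 4 libraries. At 3 reads on that span, a count of 0 allows up to 0.522 and 0.467 TPM with SNHG26 guides and up to 0.575 and 0.481 TPM with control guides. Each limit is for a single library. On day 3 with SNHG26 guides it lies below the POT1 level of 1.25 TPM, and in the other 3 libraries it lies above POT1 (0.205, 0.225 and 0.189 TPM). These limits hold for the full span only. On the shortest annotated span of TERT, 512 bases, they would be higher, so TERT is not ranked against POT1. TERC, the telomerase RNA, had no row among the genes analysed here.

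Between the guide arms, no shelterin gene passed the test. With limma on log2(TPM + 1) across 8274 genes, 0 of the 4 shelterin genes tested had an adjusted p under 0.05, against 0% of all genes tested. At an unadjusted p under 0.05 there were 0 of the 4 shelterin genes, against 337 of 8274 genes, or 4.07%. The 4 changes were 0.03 for TERF1, 0.09 for TERF2, 0.07 for TINF2 and 0.64 for ACD on the log2(TPM + 1) scale, which understates the change of low genes. The median over all genes tested was 0.04.

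TERF1 stood at 5.20 TPM on day 2 and 3.17 TPM on day 3 with the SNHG26 guides, and at 5.75 and 2.66 TPM with the control guides. Both SNHG26-guide values lay inside the range of the control guides, with arm means of 4.19 ± 1.43 TPM and 4.20 ± 2.18 TPM (SD, n = 2 each). The day 2 libraries differed by -0.12 and the day 3 libraries by 0.19 on the log2 scale, on average 0.03 (SE 0.49, 95% interval from -1.31 to 1.38, limma adjusted p 0.998). The interval leaves room for a change of more than 2-fold either way, so these libraries do not show that TERF1 was equal in the arms. The fit had no day term, so the interval also takes in the difference between the days. By exact permutation (two-sided) p was 1, and 2 libraries against 2 cannot go below 0.333. The change turned to -0.25 without the day 2 SNHG26-guide library and to -0.41 without the day 3 control library. With a library left out, the arms no longer cover the same days. These values therefore also take in the difference between the days.

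TERF2 stood at 0.958 and 2.10 TPM with the SNHG26 guides and at 0.792 and 1.99 TPM with the control guides, for day 2 and day 3. The values of the arms interleaved, with 1.53 ± 0.805 and 1.39 ± 0.844 TPM (SD, n = 2 each). The log2 change was 0.09 (SE 0.59, 95% interval from -1.51 to 1.69, limma adjusted p 0.998). It turned to -0.24 without the day 3 SNHG26-guide library and to -0.28 without the day 2 control library, values that also take in the difference between the days. CYB5B, a cytochrome b5 gene on the opposite strand, overlaps the listed TERF2 span by 10170 bases from position 69398402 on, which is outside the stretch from 69355567 to 69386007 that held most TERF2 reads.

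ACD was the one shelterin gene whose arms did not overlap. It stood at 32.2 and 28.2 TPM with the SNHG26 guides and at 22.5 and 15.9 TPM with the control guides, for day 2 and day 3. Both knockdown libraries lay above both control libraries for 1 of the 4 shelterin genes tested, against 16.1% of all genes, and none of the 4 lay below in both, against 13.2%. The means were 30.2 ± 2.85 and 19.2 ± 4.70 TPM (SD, n = 2 each), with a log2 change of 0.50 on day 2 and 0.79 on day 3. The mean change of 0.64 (SE 0.30, 95% interval from -0.19 to 1.47) had a limma adjusted p of 0.935 and an unadjusted p of 0.0983. Without each of the libraries in turn it ranged from 0.40 to 0.88. Because the arms did not overlap, leaving out a library could not turn its sign, so this range adds no support.

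The counting error behind ACD is wide. Even with every read on the full listed span, which gives the narrowest interval, the exact 95% Poisson interval was 17.9 to 53.5 TPM for the day 2 knockdown library and 6.77 to 31.5 TPM for the day 3 control library. In the day 3 control library the value equals 3 reads on a transcript of 3299 bases plus 4 reads on the RefSeq span of 2749 bases. ACD overlaps CARMIL2 on the opposite strand by 58 bases, and PARD6A lies 135 bases beyond its start. CARMIL2 was listed at 2.75 and 1.42 TPM with SNHG26 guides and at 0 with control guides on both days. Whether counting used strand is not given in the sources used here, and the part of these overlaps in the ACD values was not tested.

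TINF2 differed between the arms in opposite directions on the 2 days. It stood at 31.5 TPM on day 2 and 15.3 TPM on day 3 with the SNHG26 guides, and at 10.6 and 40.5 TPM with the control guides. The highest and the lowest value both came from the control arm. The arms differed by 1.48 on day 2 and by -1.35 on day 3 on the log2 scale, on average 0.07 (SE 0.77, 95% interval from -2.04 to 2.17, limma adjusted p 0.998). The average turned to -0.43 without the day 2 SNHG26-guide library and to -0.85 without the day 2 control library, values that also take in the difference between the days. The test of the difference between the days in the guide change gave a limma adjusted p of 0.884 and an unadjusted p of 0.0108. That fit had no arm or day term and no replicates of an arm on a day. Its spread for a gene therefore comes from the arm and day differences, not from replicates. Of the 4 shelterin genes tested for this difference, 0 passed the adjusted threshold (0.0967% of all genes did), and 1 had an unadjusted p under 0.05 (3.52% of all genes did). The reads behind TINF2, from 4 to about 18, are few for its 16 annotated spans, and GMPR2 overlaps its 3′ end by 957 bases on the opposite strand at 20.9 to 39.6 TPM.

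POT1 and TERF2IP lay under the filter and were described from a fit over all genes with a value. POT1 stood at 0.205 and 1.25 TPM with the SNHG26 guides and at 0.225 and 0.189 TPM with the control guides. The day 3 knockdown library stood apart from the other 3, which were close to each other. The log2 change was 0.45 (SE 0.37, limma adjusted p 0.873 over 13840 genes), and it was 0.92 on day 3 and -0.02 on day 2. POT1-AS1, a non-coding RNA that overlaps the POT1 start by 122 bases on the opposite strand, was listed at 0.720 and 0.0379 TPM with SNHG26 guides and at 0.129 and 0 TPM with control guides.

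TERF2IP stood at 0 and 1.35 TPM with the SNHG26 guides and at 0.832 and 0.695 TPM with the control guides. At 0 reads, the level on day 2 with SNHG26 guides could still be 2.26 TPM (3 reads) on the 9660-base span, which is above every other TERF2IP value. Its log2 change was -0.20 (SE 0.52, limma adjusted p 0.983 over 13840 genes). No difference of TERF2IP between the arms was detectable at this depth. ATP5PBP7, a processed pseudogene within the listed TERF2IP span, had 1 read with SNHG26 guides and 2 with control guides on day 2, and none on day 3. It lies outside the 9660 bases that held the TERF2IP reads.

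Between the days, TERF1 and TERF2 differed in opposite directions in both arms. TERF1 was lower on day 3 in both arms, at 3.17 and 2.66 TPM against 5.20 and 5.75 TPM on day 2. TERF2 was higher on day 3 in both arms, at 2.10 and 1.99 TPM against 0.958 and 0.792 TPM. The TPM of TERF1 was 5.43 and 7.26 times that of TERF2 on day 2 and 1.51 and 1.34 times that of TERF2 on day 3, in the knockdown and the control arm in turn. Neither gene passed the test: 0 of the 4 shelterin genes had an adjusted p under 0.05 (0.0363% of all genes did) or an unadjusted p under 0.05 (6.61% did).

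The day means of TERF1 were 5.47 ± 0.388 TPM on day 2 and 2.92 ± 0.363 TPM on day 3 (SD, n = 2 each). The day 3 library differed from day 2 by -0.57 with SNHG26 guides and by -0.88 with control guides on the log2 scale, on average -0.73 (SE 0.30, 95% interval from -1.56 to 0.11, limma adjusted p 0.760, unadjusted 0.0730). The exact permutation p (two-sided) was 0.333, the smallest that 2 against 2 allow. Both day 3 libraries lay below both day 2 libraries for 1 of the 4 shelterin genes tested, against 18.4% of all genes. The narrowest 95% Poisson intervals were 3.46 to 7.52 TPM and 1.91 to 4.95 TPM with SNHG26 guides and 3.82 to 8.30 TPM and 1.51 to 4.35 TPM with control guides, for day 2 and day 3, and they overlapped within each arm. The markers of other cell types, most of whose TPM was TAGLN, summed to less on day 3 in both arms (91.2 and 83.7 TPM against 206.7 and 214.0 TPM). Their part in the TERF1 difference was not tested.

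The day means of TERF2 were 0.875 ± 0.118 TPM on day 2 and 2.04 ± 0.0783 TPM on day 3 (SD, n = 2 each), and the log2 change was 0.66 with SNHG26 guides and 0.74 with control guides. The mean change was 0.70 (SE 0.43, 95% interval from -0.50 to 1.90, limma adjusted p 0.760, unadjusted 0.179). Both day 3 libraries lay above both day 2 libraries for 1 of the 4 shelterin genes tested, against 17.1% of all genes. The reads show a different picture in each arm. In the control arm TERF2 had 3 reads on day 2 and 9 on day 3, all over 30441 bases (69355567 to 69386007), with exact 95% Poisson intervals of 0.619 to 8.77 and 4.12 to 17.1 reads. In the knockdown arm it had 4 reads on day 2 and 5 on day 3. Of those 5, 4 lay over the same 30441 bases and gave 0.858 TPM, and 1 lay over the 5275 bases of a TERF2 transcript annotated as a target of nonsense-mediated decay, and gave 1.24 TPM. This was the one match among 298 sums tried. Without that read the day 3 knockdown level would be 0.858 TPM, below the 0.958 TPM of day 2. By this match, the higher TERF2 value on day 3 in the knockdown arm rested on 1 read on a short span. A matching span does not identify the transcript.

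**Figure D3:**
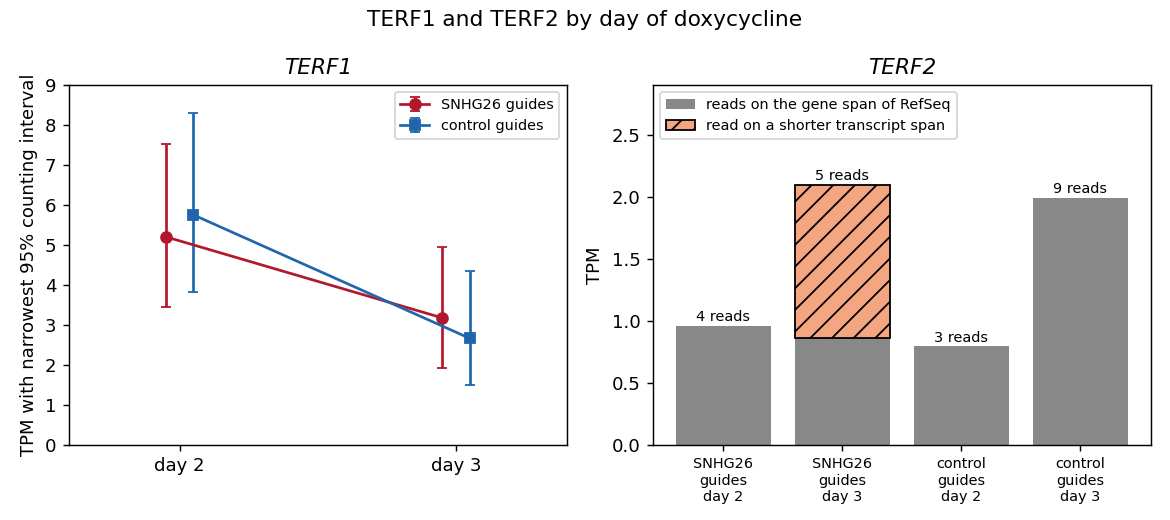
Left, TPM of TERF1 (vertical axis) on day 2 and day 3 in each arm, with the 95% Poisson interval that results if every read covers the listed gene span. Right, TPM of TERF2 in the 4 libraries, split by the span of the reads, with the number of reads above each bar. TERF1 is lower on day 3 in both arms, and 1 read on a short span makes up 1.24 of the 2.10 TPM of TERF2 in the day 3 knockdown library.

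Of the other shelterin genes, ACD was lower on day 3 in both arms, while TINF2, POT1 and TERF2IP changed in opposite directions in the arms. ACD had a log2 change of -0.19 with SNHG26 guides and -0.48 with control guides (average -0.33, SE 0.39, limma adjusted p 0.822), and its average was 0.0627 without the day 3 control library. TINF2 had -0.999 and 1.83 (average 0.42, SE 0.75, limma adjusted p 0.897), with an average of -0.32 without the day 2 control library and -0.26 without the day 3 control library. POT1 had 0.90 and -0.04, and TERF2IP 1.23 and -0.11, again with SNHG26 guides first.

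Processed copies of TERF1 and TERF2IP were also listed, and a read of an intronless copy can be hard to tell from a spliced read of the parent gene. These copies were named after their values were seen. TERF1P5 (chromosome 13, 18680494 to 18681700, plus strand, 1207 bases) had exactly 1 read in each of the 4 libraries, at 6.04, 5.41, 6.66 and 5.56 TPM. TERF1P7 on chromosome X had 1 read in the day 2 control library, and TERF2IPP1 on chromosome 22 had 1 read in the day 2 knockdown library. With its short span, TERF1P5 was listed above TERF1 in TPM in each library on 1 read where TERF1 had an estimated 15.5 to 28.1 on its RefSeq span.

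The genes whose pattern over the 4 libraries was nearest to that of TERF1 were PPM1G, CMC4, RBM8A, YBX3 and LCMT1. Likeness was the root mean square difference of log2(TPM + 1), centred on each gene's mean, among 4378 genes that averaged 5 TPM or more. PPM1G, a protein phosphatase gene and the nearest, differed by 0.0300 and stood at 32.3 and 22.7 TPM with SNHG26 guides and 36.9 and 19.5 TPM with control guides. LCMT1, the fifth, differed by 0.0504, and 21 genes lay within 0.1 of TERF1. With 4 libraries as the only points, such likeness is a description of the values.

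Of the 60 genes on the 5 lists of telomere genes outside shelterin, 59 had a row and 40 reached the filter. No gene on them passed between the guide arms or between the days. The smallest limma adjusted p between the arms was 0.935, and 0 of the 40 had an unadjusted p under 0.05, against 4.07% of all genes tested. The median change between the arms over the 40 genes was 0.04, the same as over all genes tested.

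Telomerase core and assembly genes (9 tested) had a median guide change of 0.13, which turned to -0.18 without the day 3 control library. NOP10 and NHP2, proteins of the H/ACA particle that holds the telomerase RNA, were the highest of the list. NOP10 stood at 1570 and 1735 TPM with the SNHG26 guides and 1617 and 1167 TPM with the control guides. NHP2 stood at 483.2 and 587.6 against 480.6 and 442.6 TPM and had the largest change upward shared by both days among genes that averaged 5 TPM or more, 0.21 (SE 0.17). Both genes had their lowest value in the day 3 control library, and neither difference passed (limma adjusted p 0.935). RUVBL1, an ATPase of telomerase assembly, had the largest change downward shared by both days under the same limit, with 7.22 and 6.23 TPM against 12.1 and 7.74 TPM (log2 change -0.47, SE 0.36, limma adjusted p 0.935).

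The genes that mature the telomerase RNA (4 tested) had a median of -0.47, which was 0.51 among genes that averaged 5 TPM or more, where EXOSC10 was the 1 gene left. EXOSC10, a nuclease of the RNA exosome, stood at 12.02 and 5.16 TPM against 5.80 and 4.85 TPM, with the day 2 knockdown library above the others. COIL, the scaffold protein of Cajal bodies, stood at 1.60 and 5.14 TPM against 7.38 and 4.70 TPM, with the day 2 knockdown library below the others. CST and telomere end replication genes (6 tested) had a median of 0.33. RPA3 and RPA2, subunits of the single-strand binding protein RPA, stood at 114.2 and 149.1 against 113.5 and 103.3 TPM and at 13.4 and 17.6 against 13.9 and 10.00 TPM. PRIM1, the catalytic primase subunit, stood at 11.3 and 12.6 TPM against 6.92 and 8.84 TPM (log2 change 0.55, SE 0.31, limma adjusted p 0.935). Its knockdown libraries both lay above both control libraries, as they did for 16.1% of all genes tested.

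Shelterin partners and end-processing genes (12 tested) had a median of 0.01. XRCC5, the Ku80 subunit of the end-binding Ku dimer, was their highest gene at 1377 and 1102 TPM against 1316 and 1237 TPM. GNL3 (nucleostemin), a nucleolar GTPase that binds TERF1, stood at 192.5 and 244.5 TPM against 158.2 and 192.2 TPM (log2 change 0.31, SE 0.22, limma adjusted p 0.935). Telomeric chromatin genes (9 tested) had a median of -0.11. H3-3B, which encodes histone H3.3, stood at 659.3 and 582.9 against 582.9 and 593.8 TPM, and CBX3, a heterochromatin protein, at 71.0 and 67.6 against 82.4 and 71.3 TPM. DAXX, the H3.3 chaperone, had 65.4 and 66.6 against 64.9 and 60.7 TPM. CBX5, another heterochromatin protein, was lower in both knockdown libraries, at 18.5 and 13.6 against 23.8 and 22.3 TPM (log2 change -0.51, SE 0.29, limma adjusted p 0.935). Both knockdown libraries lay below both control libraries for 13.2% of all genes tested.

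**Figure D4:**
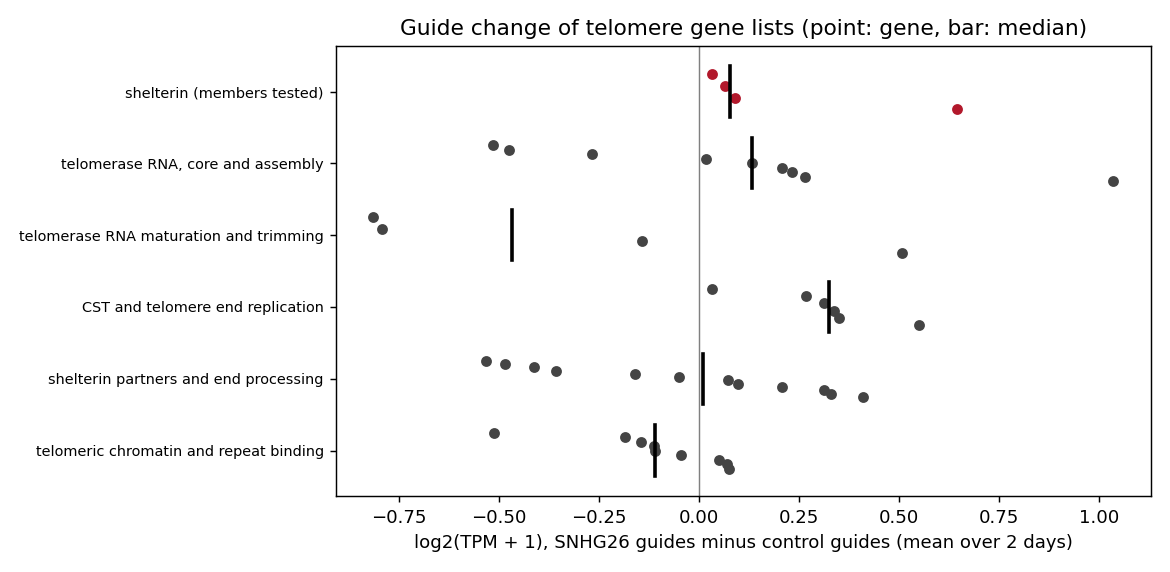
Change between the guide arms on the log2(TPM + 1) scale (horizontal axis, SNHG26 guides minus control guides, mean over the 2 days) for the 4 shelterin genes tested and for the 40 tested genes of the 5 telomere lists, 1 point per gene, with a bar at each list's median. TERF1, TINF2 and TERF2 lie between 0.03 and 0.09, ACD lies at 0.64, and no gene passed the test.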

How the data were processed

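The deposited values are TPM per gene, 1 column for each library, in a table that also lists each gene's genomic span. Per the submitters' processing notes, minimap2 2.24-r1122 and the build GRCh38 were used. The counting tool, annotation, filters and use of strand are not given in the sources used here. What 1 read is worth was recovered from the 13 mitochondrial mRNAs and refined on genes that came out whole. On 10 kb it was 0.729 and 0.653 TPM in the knockdown libraries and 0.803 and 0.672 TPM in the control libraries. With it, 20.6% of 13840 genes came out as whole reads over the listed span within 0.0001 read. Sums over 2 spans were accepted within 1e-08 of the read number. These span matches were chosen after seeing the data. Since reads are whole for some genes only, no count test was run.

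The tests used limma 3.58.1 (R 4.3.3; eBayes with a trend) on log2(TPM + 1) of genes that averaged 1 TPM or more, with no day term, Benjamini-Hochberg adjustment and a threshold of 0.05. The script was tested on simulated data. The genes, lists and tests were chosen with earlier results of these data known. Named genes are all 7 members, SNHG26, overlapping genes, the 5 genes nearest to TERF1 and, for each list, any that passed, the 2 highest and the largest change each way, shared by both days, at an average of 5 TPM or more. Alternatives were pseudocounts of 0.1 and 5, other filters and scalings, no trend, a replicate block and leaving out each library.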

Additional observations from a re-analysis of the deposited data

How the results depend on the processing

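No shelterin gene passed the threshold in any contrast under any alternative run. The count of genes changed between the guide arms was 0 in all of them. Between the days, 3 genes passed, and 0 did at either other pseudocount (0.1, 5), unfiltered, after quantile normalization or without the trend. The guide change differed by day for 8 genes, against 14 at pseudocount 0.1, 13 among genes averaging 5 TPM or more, and 0 at pseudocount 5, unfiltered or without the trend. None of these are shelterin genes, and the cause was not tested. No arm had replicates on a day, so the fit for the difference between days took a gene's spread from the arm and day differences. The replicate block was the day for the guide comparison and for the difference between days, and the arm for the day comparison. With it, 0 genes passed between the arms (359 at an unadjusted p under 0.05), 0 between the days and 0 for the difference between days. Across arms, libraries of the same day deviated with a correlation of 0.0464 over 8274 genes, and the main fit did not treat them as pairs. This correlation does not show that the day had no effect on a given gene. TERF1 and TERF2 each differed between the days in the same direction in both arms.

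Each comparison without 1 library left an arm or a day with 1 library, assumed to vary like the others. The arms then no longer covered the same days, so the guide changes below take in part of the day difference. In the same way, the day changes take in part of the difference between the arms. The counts of genes passing were then 0 to 0 between the days and for the difference between days. The guide change ranged from -0.41 to 0.48 for TERF1, from -0.28 to 0.46 for TERF2 and from -0.85 to 0.98 for TINF2. The day change ranged from -0.82 to -0.63 for TERF1, from -0.32 to 1.16 for TINF2 and from -0.73 to 0.0627 for ACD. TERF1 and TERF2 average under 5 TPM, so that filter left them out. Under the other settings, the 4 tested genes kept their direction in both contrasts. Without each library in turn, the list medians of the guide change ranged from -0.18 to 0.27 for telomerase core and assembly, from -0.53 to -0.17 for maturation, from 0.16 to 0.36 for end replication, from -0.18 to 0.08 for partners and from -0.25 to 0.03 for chromatin. Depth limits the genes with few reads: TERT had 0 in each library, TERF2IP 0 to 2 and TERF2 3 to 9, and the numbers for POT1 are not known.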

Other observations

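ATRX, the chromatin remodeller that works with DAXX at telomeres, had the largest change between the days among the listed telomere genes and was singled out after its values were seen. It stood at 0.575 and 0.672 TPM on day 2 and at 13.4 and 14.8 TPM on day 3, in the knockdown and the control arm in turn. The log2 change was 3.22 (SE 0.29), with a limma adjusted p of 0.119. Both day 3 libraries lay above both day 2 libraries, as they did for 17.1% of all genes tested. On the full listed span of 281354 bases the day 3 values would need 577.2 and 621.1 reads. A single read on the shortest GENCODE 29 transcript of ATRX, 386 bases, would be worth 16.9 and 17.4 TPM in the day 3 libraries, more than either value. The reads behind the ATRX values are therefore not known. RUVBL2, the partner ATPase of RUVBL1, was the other listed gene with an unadjusted p under 0.05 between the days, at 41.8 and 51.5 TPM on day 2 and 25.8 and 20.3 TPM on day 3 (limma adjusted p 0.566). These 2 of 40 listed genes compare with 6.61% of all genes tested.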
